A study of Mus musculus with 4 samples.

Results

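Il7r, the gene of the alpha chain of the interleukin-7 (IL-7) receptor, was followed in single cells sorted as monocytes and macrophages from the colon of mice. It is 1 of 28692 genes in the deposited count table, and it was chosen by its measured values in these samples, among them its level in mice given diesel exhaust particles (DEP) against control mice. Its level in those groups, in T cells and in macrophage clusters is therefore given below as a description with no test. The 4 mice were male and of the strain C57/Bl6N, kept under specific-pathogen-free conditions. DEP 11 and DEP 13 had 12 µg of DEP in 200 µL of phosphate-buffered saline (PBS) by oral gavage, on 5 days of each week over about 6 months, and PBS 2 and PBS 3 had PBS alone. No age is stated for the mice. Lamina propria cells that carried CD11b together with Ly6C or CD64 were sorted from each mouse, and each mouse had a library of its own that reads the 3' end of transcripts and counts unique molecular identifiers (UMIs). With 2 mice per group, a difference between groups rests on the spread of 2 values on each side.

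The IL-7 receptor is built from the alpha chain that Il7r encodes and the common gamma chain, encoded by Il2rg, which several interleukin receptors share. IL-7 that binds it activates the kinases JAK1 and JAK3 and then STAT5, and in T cells and innate lymphoid cells this signal keeps the cell alive. The same alpha chain pairs with the product of Crlf2 to form the receptor of thymic stromal lymphopoietin (TSLP), an epithelial cytokine. Lymphocytes are the best known carriers of Il7r, and mature macrophages are usually not counted among them.

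In the annotation used here (GENCODE M21, build GRCm38, which is mm10), Il7r lies on the minus strand at chr15:9505788-9530176. No other annotated gene overlaps it, and the nearest neighbours are Capsl, 39750 bases below its lower end, and Spef2, 48017 bases above its upper end. Of its 4 transcripts, the 2 that code for protein end in the same last exon at chr15:9505788-9508358, whose 2571 bases hold the 3' end that such a library reads, and the 2 processed transcripts lack this exon. The promoter window of Il7r is shown because factors of the ETS family, PU.1 (encoded by Spi1) and GABP among them, are known to act on this gene and are described below. The window is the RefSeq one (GRCm38.p6, minus strand, chr15:9529827-9530126, 250 bases before to 50 bases after the start). The capitals mark the letters ACTTCC, the reverse complement of the motif GGAAGT searched on both strands.
Il7r promoter: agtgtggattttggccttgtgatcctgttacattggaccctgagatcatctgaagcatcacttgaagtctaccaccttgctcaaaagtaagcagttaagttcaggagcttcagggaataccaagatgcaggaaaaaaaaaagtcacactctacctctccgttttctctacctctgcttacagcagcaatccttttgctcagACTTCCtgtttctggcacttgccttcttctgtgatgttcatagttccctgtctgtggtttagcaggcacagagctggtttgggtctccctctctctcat
The motif occurred once in this window, beginning 49 bases before the start. It occurred in 23.8% of the 32851 promoter windows of the same length, so its presence is not particular to Il7r, and a match in letters is no evidence of binding.

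The libraries held 6954 barcodes in all and 4489342 to 10293703 UMIs per mouse. DEP 13 had the fewest UMIs in total and the fewest barcodes (977). Of the 4771 barcodes with at least 1000 UMIs, 4623 passed filters on detected genes and mitochondrial share, and 4483 of these lay in clusters of macrophages or monocytes (macrophages below). Clusters were named from markers: 4 clusters with complement and scavenger genes such as C1qa and Mrc1 were called Ccr2−-like (2064 cells), 5 with monocyte genes Ccr2+-like (1984 cells, by Ccr2 and Plac8 in clusters 3, 7 and 8, Ccr2 without Plac8 in cluster 9.2 and Plac8 without Ccr2 in cluster 9.3, which interferon-induced genes such as Isg15 led), and cluster 2 (435 cells) stayed unnamed. Il7r was not among the 500 variable genes used for clustering. Clusters of T cells (37 cells), B cells (23 cells) and plasma cells (80 cells) had also come through the sort. Of the barcode names, 36 were carried by more than 1 library, covering 33 macrophages of which 2 had an Il7r UMI. Called doublets made up 3.99% of the kept cells of DEP 13 and 0.563% to 1.18% of those of the other mice.

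Il7r was sparse. The whole table held 410 UMIs of it, and 300 of the 4771 barcodes with at least 1000 UMIs carried it (6.29%, 95% exact binomial interval 5.62% to 7.01%). Most of these barcodes, 274, were macrophages, 9 lay in the T cell cluster, 11 in the plasma cell cluster and none in the B cell cluster, and 6 had not passed the cell filters. The 274 macrophages were 6.11% of the 4483 macrophages and held 369 Il7r UMIs. A single UMI was found in 208 of them and 2 in 48, and the largest number in a cell was 7. A cell without an Il7r UMI is therefore not a cell shown to lack the transcript, and "Il7r+" below means only that at least 1 UMI was counted. All intervals of shares and levels cover counting error only.

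Il7r+ macrophages were found mainly among the Ccr2−-like cells. In these, 239 of 2064 cells carried Il7r, with shares of 16.0%, 15.5%, 8.77% and 8.92% in DEP 11, DEP 13, PBS 2 and PBS 3. In the Ccr2+-like cells 21 of 1984 did, with shares of 0.550%, 2.16%, 0.906% and 1.22% for the mice as just listed. The lowest Ccr2−-like share lay above the highest Ccr2+-like share, and the order held within each mouse. As a level in CPM, the UMIs of a gene scaled to the total UMIs of the summed cells, Il7r stood at 23.6 ± 12.3 in Ccr2−-like cells, 5.48 ± 4.05 in the unnamed cluster and 2.64 ± 1.51 in Ccr2+-like cells (mean ± SD over the 4 mice).

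Plasma cells served as a cell type in which Il7r is not known to be used. They had an Il7r UMI in 13.8% of 80 cells at a median of 20942 UMIs, against 6.11% of macrophages at a median of 5931, so raw shares cannot be set side by side. When every cell was thinned to 1000 UMIs, the expected share was 0.680% in plasma cells, 1.83% in Ccr2−-like cells, 0.433% in the unnamed cluster and 0.240% in Ccr2+-like cells. The summed level in plasma cells was 7.90 CPM (95% exact Poisson interval 4.205 to 13.5). The Ccr2−-like cells together, at 20.5 CPM (18.3 to 22.8), stood above this interval. Taken by mouse, those of DEP 11 (26.7 to 38.6 CPM) and DEP 13 (28.5 to 45.1 CPM) did, while those of PBS 2 (9.304 to 15.4 CPM) and PBS 3 (11.1 to 17.9 CPM) overlapped it. The interval of the unnamed cluster, at 4.77 CPM (2.67 to 7.86), also overlapped it, and that of the Ccr2+-like cells, at 2.30 CPM (1.45 to 3.44), lay below it. In the B cell cluster 0 of 23 cells had an Il7r UMI, which allows a share of up to 13.04%. Barcodes under 500 UMIs carried Il7r in 5 of 1614 cases and at 10.6 CPM (3.44 to 24.7), an interval on 5 UMIs that includes the Ccr2−-like level. Barcodes from 500 UMIs up to the minimum of 1000 had 18.0 CPM (7.22 to 37.0) on 7 UMIs, at 0 and 14.2 CPM for DEP 11 and DEP 13 against 27.6 and 26.3 CPM for PBS 2 and PBS 3, the opposite direction to the macrophages below.

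**Figure D1:**
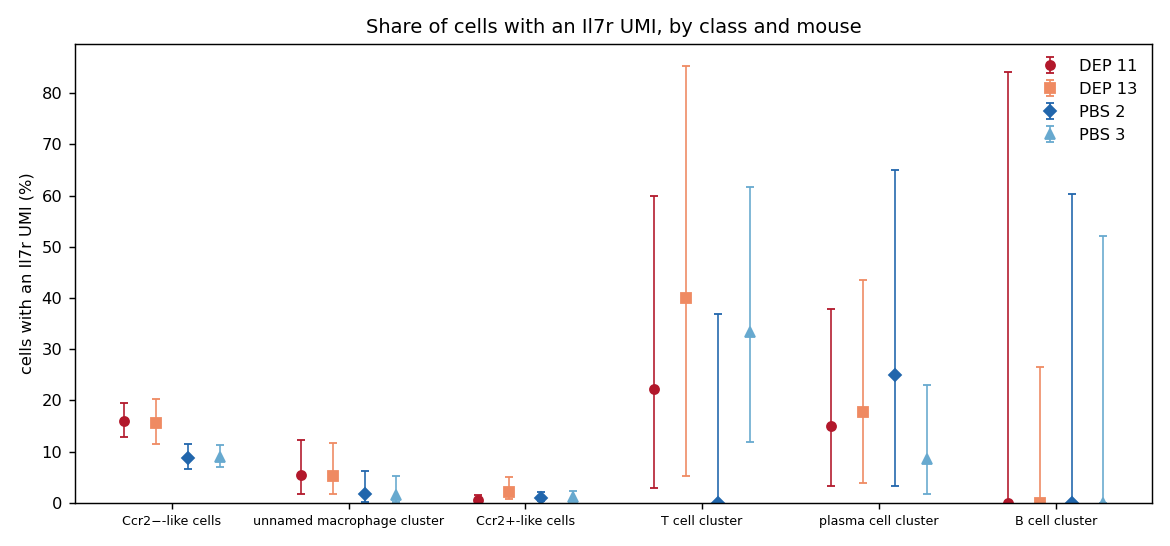
Share of cells with an Il7r UMI (y axis, percent) by cell class (x axis) and mouse, unthinned. Points are the share in a mouse and bars its 95% exact binomial interval. The 4 Ccr2−-like points lie between 8.77% and 16.0% and the 4 Ccr2+-like points between 0.550% and 2.16%, while the T, plasma and B cell clusters hold few cells and have wide intervals.

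Within the Ccr2−-like cells, cluster 1 carried most of the Il7r signal. This cluster, led by the class I-like gene H2-M2, Zmynd15 and the collagenase gene Mmp13, made up 27.4% of the macrophages and held 184 of the 274 Il7r+ macrophages (67.2%) and 70.5% of their Il7r UMIs. Its Il7r level was 38.0 CPM in DEP 11 and 44.0 CPM in DEP 13, and 14.4 CPM in PBS 2 and 16.7 CPM in PBS 3. Cluster 4, led by Stmn1 and histone genes that mark dividing cells and by Pf4, had levels of 18.6, 26.1, 5.51 and 8.56 CPM in the same mice. Cluster 1 stood above cluster 4 in each of the 4 mice.

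Cluster 5, led by the chemokine gene Ccl8 and Folr2, had Il7r levels of 38.9, 20.8, 6.06 and 3.89 CPM, from 18 UMIs in all. Cluster 6, led by Il1a, Cxcl1 and Tnf, held 5 Il7r UMIs, and its 13 cells from DEP 13 had none, which allows a share of up to 23.1%. Ordered by the mean level over the 4 mice, cluster 1 (28.3 ± 14.9 CPM, with an SD that includes the gap between DEP and PBS mice) was followed by cluster 5 (17.4 ± 16.2), cluster 4 (14.7 ± 9.42), cluster 9.2 (11.4 ± 13.3), cluster 6 (7.30 ± 5.15), cluster 8 (6.18 ± 4.35), cluster 2 (5.48 ± 4.05), cluster 7 (1.61 ± 1.38) and cluster 3 (1.53 ± 1.78), with cluster 9.3 at 0 of 38 cells. Neighbours in this order down to cluster 3 differed by less than the SD of either, except cluster 2 and cluster 7. Single mice departed from this order in several places. Cluster 5 lay below cluster 4 in DEP 13 and PBS 3, and above cluster 1 in DEP 11 (38.9 against 38.0 CPM). Cluster 6 lay above clusters 4 and 5 in PBS 2 and PBS 3, at 8.67 and 12.1 CPM on 2 UMIs each. Cluster 9.2 lay above cluster 1 in PBS 3 (21.2 against 16.7 CPM), on 1 UMI. Clusters 9.2 and 9.3 were shallow, with medians of 1616 and 1842 UMIs per cell, and together held 2 Il7r UMIs.

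**Figure D2:**
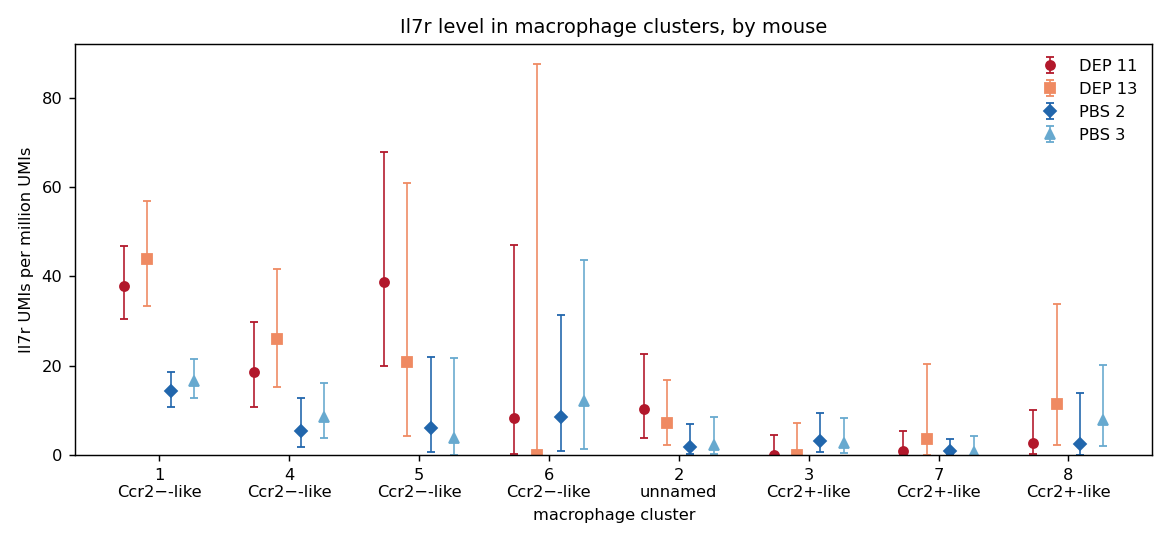
Il7r level (y axis, CPM) in 8 macrophage clusters (x axis, with their class) by mouse; the shallow clusters 9.2 and 9.3 are not drawn. Points are the level in a mouse and bars its 95% exact Poisson interval. In cluster 1 the DEP mice sit at 38.0 and 44.0 and the PBS mice at 14.4 and 16.7, and clusters 3 and 7 stay under 4 in every mouse.

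The T cell cluster had the highest level of Il7r per UMI among the named classes. In the T cell cluster, named from 11 T cell markers, 9 of 37 cells carried Il7r (24.3%, interval 11.8% to 41.2%). By mouse these were 2 of 9 cells in DEP 11, 2 of 5 in DEP 13, 0 of 8 in PBS 2 and 5 of 15 in PBS 3. The summed level was 79.7 CPM (38.2 to 147), against 12.6 CPM (11.3 to 13.9) in macrophages. Thinned to 1000 UMIs, 10.4% of the T cell cluster and 0.993% of macrophages were expected to carry it. The 37 cells gave 10 Il7r UMIs against 369 from macrophages, so most Il7r UMIs of this data set did not come from T cell barcodes. Of the 9 Il7r+ cells of this cluster 5 had a UMI of a CD3 gene, and the markers of innate lymphoid or NK cells summed to 734 CPM in the cluster, with a UMI in 20 of its 37 cells.

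A UMI of the CD3 genes (Cd3d, Cd3e or Cd3g, which encode the signalling chains of the T cell receptor) did not mark T cells alone. Of 164 kept cells with such a UMI, 21 lay in the T cell cluster, 136 were macrophages and 7 were plasma cells. The summed level of the CD3 genes was 1164 CPM in the T cell cluster and 17.8 CPM in Ccr2+-like cells, against 5.88 CPM in the Ccr2−-like class, which had more Il7r. Il7r was found in 10 of the 136 macrophages with a CD3 UMI (7.35%, interval 3.58% to 13.1%) and in 264 of the 4347 without one (6.07%, interval 5.38% to 6.82%). These intervals overlap. In macrophages without a CD3 UMI the Il7r level was 18.7, 21.8, 7.48 and 9.23 CPM in DEP 11, DEP 13, PBS 2 and PBS 3, close to the values over all macrophages.

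Transcripts of other cells were looked for in the Il7r+ macrophages, beside 822 macrophages with no Il7r UMI that were taken from the same mouse and cluster at the nearest depth (3 per Il7r+ cell). The 11 T cell markers summed to 30.5 CPM in Il7r+ and 29.1 CPM in the matched cells, against 4123 CPM in the T cell cluster, and Cd8a and Bcl11b were at 0 in the Il7r+ cells. By mouse the T cell sum ran from 7.91 to 66.4 CPM in Il7r+ cells and from 24.2 to 38.9 CPM in the matched cells. The 10 markers of innate lymphoid or NK cells summed to 13.7 and 19.1 CPM, with Klrg1 and Eomes at 0 in both. The 9 markers of conventional dendritic cells summed to 55.1 and 39.1 CPM, with Zbtb46 and Fscn1 at 0 in the Il7r+ cells and none at 0 in the matched cells. Over the 4 mice that dendritic cell sum ran from 3.80 to 122 CPM in Il7r+ cells and from 15.8 to 50.5 CPM in matched cells.

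B cell markers summed to 55.5 CPM in Il7r+ and 61.8 CPM in matched cells, neutrophil markers to 30.5 and 25.9, epithelial markers to 18.8 and 27.4, and mast cell markers to 3.52 and 2.30. Plasma cell markers were abundant in both, at 5365 and 4844 CPM, and in DEP 13 they stood at 8012 CPM in Il7r+ and 5146 CPM in matched cells. The markers of resident macrophages summed to 64464 CPM in Il7r+ and 60567 CPM in matched cells, against 10582 CPM in the T cell cluster. Called doublets were 2.55% of the Il7r+ and 2.80% of the matched cells, and the median mitochondrial share was 1.69% and 1.76%.

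Il7r stood higher in both DEP mice than in both PBS mice. Over all macrophages its level was 18.5 CPM in DEP 11 and 22.2 CPM in DEP 13, and 7.41 CPM in PBS 2 and 9.39 CPM in PBS 3. The DEP mean was 20.4 ± 2.58 CPM and the PBS mean 8.40 ± 1.40 CPM (SD, n = 2), a ratio of 2.42, and the gap between the groups was wider than the spread within either. The log2 fold change in the fit across all genes was 1.27 with a standard error of 0.24. These values chose the gene and are not tested here. Both DEP mice above both PBS mice is a frequent pattern at this size: 14.6% of the 6621 genes tested in all macrophages had it, and 27.1% had the groups apart in either direction.

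The difference was found in the Ccr2−-like cells, and also in the unnamed cluster described below. In the Ccr2−-like cells the Il7r level was 32.2, 36.1, 12.1 and 14.2 CPM in DEP 11, DEP 13, PBS 2 and PBS 3. The log2 fold change there was 1.38 (SE 0.23). Of the 7149 genes tested in that class, 15.2% had both DEP mice above both PBS mice, and 30.8% had the groups apart in either direction. In the Ccr2+-like cells the levels were 1.15, 4.57, 1.78 and 3.06 CPM and the groups overlapped, on 23 UMIs in all, and Il7r did not pass the filter for the fit (14.5% of the 5769 genes tested there had both DEP mice above, and 27.2% had the groups apart). Whether the difference between DEP and PBS mice itself differed between the classes was not tested.

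Both DEP mice also stood above both PBS mice in clusters 1, 2, 4 and 5 taken one by one. These clusters come from the same 4 mice, so they do not repeat the comparison. The share of all genes with this order was not computed for single clusters. It was 14.6% in all macrophages and 15.2% in Ccr2−-like cells. Cluster 2 had 10.4, 7.23, 1.92 and 2.40 CPM in DEP 11, DEP 13, PBS 2 and PBS 3. Clusters 3, 6, 7, 8 and 9.2 did not show this order in CPM, on 2 to 10 Il7r UMIs per cluster. By the share of cells cluster 7 did show it, at 0.518% and 1.92% for DEP 11 and DEP 13 against 0.337% and 0.379% for PBS 2 and PBS 3, on 1 Il7r+ cell in each mouse. In cluster 3, DEP 11 (191 cells) and DEP 13 (106 cells) had no Il7r UMI, and PBS 2 (159 cells) and PBS 3 (246 cells) had 3 each. Plasma cells had Il7r levels of 7.82, 13.9, 9.50 and 4.34 CPM, and there the groups overlapped.

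The share of macrophages with an Il7r UMI was 7.87% and 8.90% in DEP 11 and DEP 13 and 4.58% and 4.85% in PBS 2 and PBS 3, a mean difference of 3.67 percentage points. PBS 2, with the lowest share, had the deepest cells (median 7256 UMIs), and the other 3 mice had medians of 5370 to 5929. At 1000 UMIs per cell the thinned values were 1.53% and 1.52% for the DEP mice, against 0.570% and 0.709% for the PBS mice. With every mouse weighted to the cluster mix of all macrophages, the unthinned shares were 8.26%, 8.85%, 4.58% and 4.65%. The part of depth and of the cluster mix in the Il7r difference was not tested.

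Il7r was seen more often in deeper cells. In cluster 1, split into 3 equal classes by UMIs per cell over all mice, 14.96% of the shallowest cells of DEP 11 and 31.8% of its deepest carried Il7r. In DEP 13 the share went from 4.88% to 45.8%, in PBS 2 from 3.92% to 16.2%, and in PBS 3 from 5.79% to 25.3%. In the middle class the shares were 21.6%, 11.9%, 7% and 9.80% in DEP 11, DEP 13, PBS 2 and PBS 3. Both DEP mice stood above both PBS mice in the middle and the highest class, and in the lowest DEP 13 (2 of 41 cells) lay below PBS 3 (11 of 190 cells). The share of all genes with such an order was not computed for depth classes.

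**Figure D3:**
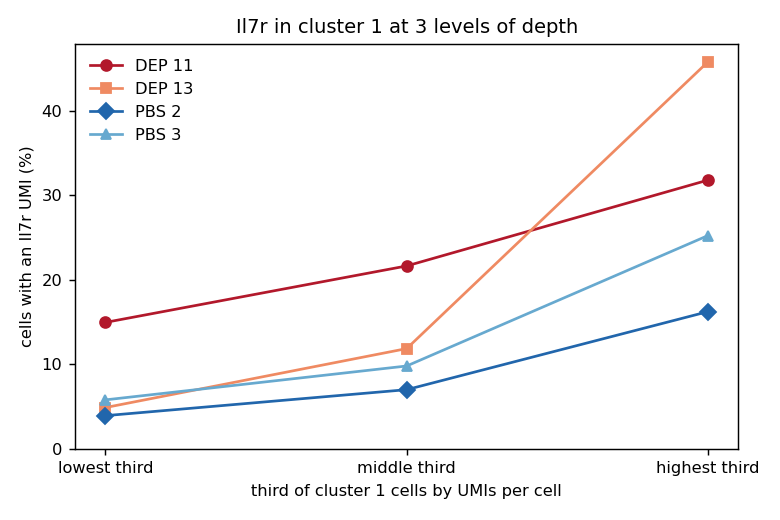
Share of cluster 1 cells with an Il7r UMI (y axis, percent) in 3 equal depth classes of the cluster's cells (x axis, UMIs per cell over all mice), with a line for each mouse. The share rises with depth in all 4 mice, to 16.2% to 45.8% in the deepest class, and DEP 13 and PBS 3 lie close together in the shallowest.

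Of the 2 ligands, Il7 had 0 UMIs in the 4483 macrophages, which allows a share of up to 0.0669% of cells with a UMI. Tslp had 51 UMIs (1.74 CPM). The second chains of both receptors were present in macrophages: Il2rg had a UMI in 37.4% of them (87.2 CPM) and Crlf2 in 37.7% (82.1 CPM). In the T cell cluster Il2rg stood at 215 CPM and Crlf2 at 39.9 CPM.

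Il2rg stood at 87.1 and 71.4 CPM in DEP 11 and DEP 13 and at 92.7 and 88.3 CPM in PBS 2 and PBS 3, and the DEP mice lay below the PBS mice by a log2 fold change of -0.19 (SE 0.16). Crlf2 stood at 90.6, 61.2, 108 and 56.0 CPM, and the groups overlapped (log2 fold change -0.10, SE 0.28). Neither passed the test. Of the 28 pathway genes other than Il7r, 18 could be tested in all macrophages, and 0 were called by the edgeR quasi-likelihood test at an adjusted p of 0.05 (0 of all 6621 genes were called, 0%). Their median log2 fold change was -0.04, beside -0.01 over all genes tested. At an unadjusted p of 0.05 the edgeR fit had 172 of all genes and 1 of the 18, Ccnd2 (a cyclin gene, log2 fold change -0.49), which is named for its value. DESeq2 called 4 of all genes and limma voom 0.

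In the Ccr2−-like cells 20 pathway genes could be tested and 0 were called, with a median log2 fold change of -0.05 beside -0.00 over all genes. Of the 7149 genes 1 was called there (0.014%), Apol7a, a gene of the apolipoprotein L family (log2 fold change 1.74, SE 0.24, adjusted p = 0.0107 by edgeR), named because it is the single call. In the Ccr2+-like cells 16 pathway genes were tested and 0 were called (0% of 5769 genes). The counts of calls differed when a library was left out: in all macrophages the call count was 3 without DEP 11, 10 without DEP 13, 50 without PBS 2 and 10 without PBS 3. Each of these fits leaves 1 mouse in a group, which is assumed to vary like the 2 mice of the other group, so the counts are no measure of stability.

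The kinases and STATs that act below the receptor were measured at different depths. Jak1 (2141 UMIs in macrophages) had a log2 fold change in DEP mice of -0.00 (SE 0.16), Stat5a (274 UMIs) of -0.14 (SE 0.29) and Stat5b (305 UMIs) of -0.02 (SE 0.26). Jak3, with 207 UMIs, did not pass the filter. Of the 7 other receptor chains that pair with the common gamma chain or belong to the same family, 3 could be tested in all macrophages (Il4ra, Il21r and Il13ra1) and 0 were called, as were 0% of all genes, with log2 fold changes of -0.35 to 0.04. Il2ra and Il2rb, the chains of the IL-2 receptor, had 9 and 16 UMIs.

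Of 13 transcription factors known to act on Il7r, 10 could be tested between DEP and PBS mice in all macrophages and 0 were called, as were 0% of all genes (median log2 fold change 0.01). Spi1, which encodes PU.1, was the most abundant of the list with 14171 UMIs and a log2 fold change of -0.03 (SE 0.24). Gabpa and Gabpb1, which encode the subunits of the other ETS-type factor, had log2 fold changes of 0.35 (SE 0.25) and -0.58 (SE 0.29). Foxo1, which acts on Il7r in T cells, had 209 UMIs and did not pass the filter.

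Of a list of 17 genes induced when tissue is taken apart, 17 could be tested and 0 were called (0% of all genes). In all macrophages 16 of the 17 had a negative log2 fold change in DEP mice, as had 51.1% of all genes tested, and 7 of the 17 had an unadjusted edgeR p under 0.05, as had 172 of the 6621. The median was -0.30, beside -0.01 over all genes. Hspb1, a small heat shock protein gene, had the lowest value (log2 fold change -2.20, SE 0.45, edgeR adjusted p = 0.722). The part of tissue handling in the Il7r difference was not tested.

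**Figure D4:**
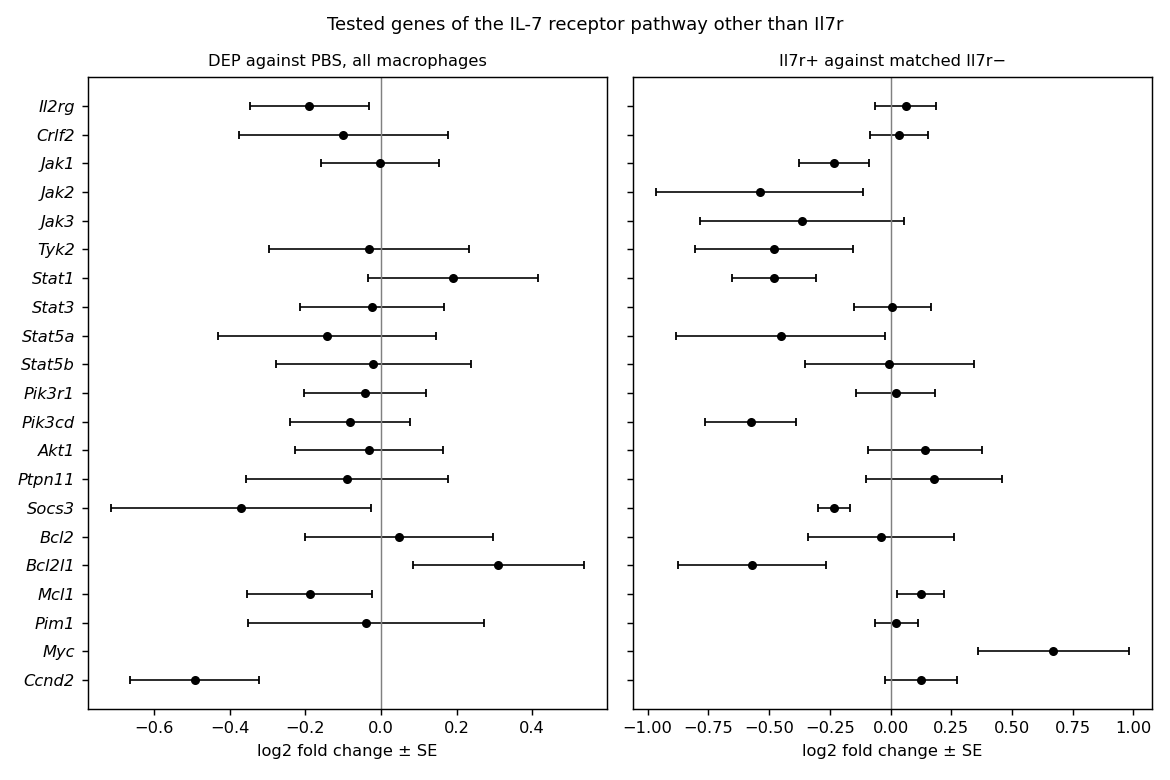
Log2 fold change with its standard error (x axis) of each tested gene of the IL-7 receptor pathway list other than Il7r (y axis), on the left between DEP and PBS mice in all macrophages and on the right between Il7r+ and matched Il7r− macrophages. No gene on either side passed the edgeR test at an adjusted p of 0.05, and genes that could not be tested on the left have no point there.

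Genes co-detected with Il7r were sought by comparing the 274 Il7r+ macrophages with the 822 matched ones, summed per mouse, with the mouse as a block and Il7r itself left out. Of 7540 genes tested, 100 were called by the edgeR quasi-likelihood test (1.33%), 57 higher (0.756%) and 43 lower (0.57%) in the Il7r+ cells, and 48 and 42 of these moved the same way in all 4 mice. The genes with the smallest p among these are named below, 10 higher and 5 lower. The Il7r+ cells and the matched cells had median depths of 9094 and 8560 UMIs, and only in DEP 13 was the gap wide (9863 against 8137). The 2 sums of a mouse come from the same library. The edgeR p-values rest on a spread that is shared across all genes, so they do not measure agreement among the 4 mice alone.

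Of the 28 pathway genes 21 could be tested and 0 were called, where 1.33% of all genes were, so a count of 0 among 21 is near the background. Il2rg had a UMI in 43.8% of the Il7r+ and 45.7% of the matched cells (log2 fold change 0.06, SE 0.13), and Crlf2 in 50.7% and 49.4% (log2 fold change 0.04, SE 0.12). Jak1 had a log2 fold change of -0.23 (SE 0.14), Jak3 of -0.36 (SE 0.42), Stat5a of -0.45 (SE 0.43) and Stat5b of -0.01 (SE 0.35). The suppressor Socs3, a target of JAK-STAT signals, came nearest to a call (log2 fold change -0.23, SE 0.07, edgeR adjusted p = 0.0852) and is named for that value. Of the common gamma chain family receptors 3 could be tested and 0 were called, with Il21r (log2 fold change -0.65, SE 0.18, edgeR adjusted p = 0.0607) the lowest. Of the transcription factors 11 could be tested and 0 were called, and Spi1 had a log2 fold change of 0.01 (SE 0.06).

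Among the genes higher in Il7r+ cells, Crip1 (a LIM domain protein) stood at 1905 against 1225 CPM in DEP 11, 2360 against 1609 in DEP 13, 1698 against 1320 in PBS 2 and 1833 against 1461 in PBS 3 (log2 fold change 0.51, SE 0.05, adjusted p = 1.51e-08). Vim, the intermediate filament vimentin, rose by a log2 fold change of 0.52 (SE 0.05), Lgals3 (galectin-3) by 0.57 (SE 0.05), Ecm1 (extracellular matrix protein 1) by 0.59 (SE 0.06) and the tetraspanin gene Cd9 by 0.71 (SE 0.08). These are edgeR estimates, and the choice of genes required the Il7r+ cells to lie above the matched cells in 4 of 4 mice.

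Of the other 5 genes named as higher, H2-M2 (log2 fold change 0.59, SE 0.07) and Pxdc1 (0.69, SE 0.10) are, with Cd9, among the 10 genes that lead cluster 1, although the matched cells came from the same cluster. Apoe, the apolipoprotein of resident macrophages, had the smallest change (0.23, SE 0.03). Il1r2, the decoy receptor for IL-1, stood at 134 against 84.3 CPM in DEP 11, 177 against 60.4 in DEP 13, 114 against 57.0 in PBS 2 and 141 against 76.5 in PBS 3 (log2 fold change 1.03, SE 0.12, edgeR adjusted p = 8.30e-07). Cxcl1, a chemokine that draws neutrophils, had the largest change of the 10 higher genes (1.28, SE 0.16), and in DEP 13 it stood at 272 against 41.0 CPM. Without DEP 13 its log2 fold change was 0.94.

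The 5 genes named as lower include Ccl8, Ccl12, Ccl7 and Ccl5, which encode CC chemokines that draw monocytes or lymphocytes. The share of CC chemokine genes among all genes tested was not computed, so no result is read from the family. Ccl8 stood at 489 against 832 CPM in DEP 11, 441 against 973 in DEP 13, 237 against 431 in PBS 2 and 245 against 340 in PBS 3 (log2 fold change -0.78, SE 0.07, edgeR adjusted p = 1.51e-08). Ccl12 fell by 1.02 (SE 0.11), Ccl7 by 1.21 (SE 0.16) and Ccl5 by 1.33 (SE 0.17) on the log2 scale. For Ccl7, DEP 13 again had the widest gap, 57.0 against 428 CPM, and the log2 fold change was -0.84 without it. Ifitm1, an interferon-induced membrane protein gene, fell by 1.14 (SE 0.14).

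**Figure D5:**
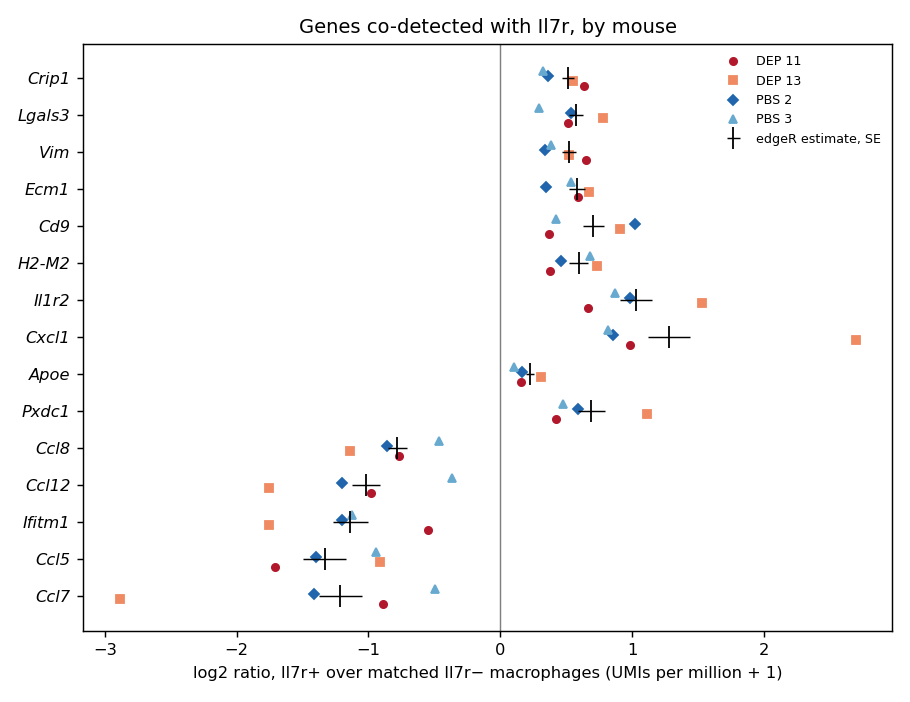
Log2 ratio of the level in Il7r+ over matched Il7r− macrophages (x axis, CPM with 1 added) for the 10 higher and 5 lower genes with the smallest p among those called that moved the same way in all 4 mice (y axis). Coloured points are the 4 mice, black marks the edgeR estimate with its standard error. That choice places all points of a gene on 1 side of 0, and DEP 13 lies farthest out for Cxcl1 and Ccl7.

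The 15 named genes kept their direction and their call in cells of cluster 1 alone, where 54 genes were called, and when each mouse was left out in turn. They had been chosen by their call and direction in these same mice, and cluster 1 held 67.2% of the Il7r+ macrophages. Neither is therefore an independent check. With DESeq2 13 of the 15 kept their call, and Cxcl1 (log2 fold change 1.37, adjusted p = 0.182) and Ccl7 (-1.35, adjusted p = 0.334) lost it. The number called over all genes was 50 without DEP 11 and 51 without DEP 13. Without the mouse as a block 2 genes were called, Il1r2 and Ccl12. Set against every macrophage with no Il7r UMI in place of the matched ones, 702 genes were called and Crip1 changed sign (log2 fold change -0.055).

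Of the 17 tissue dissociation genes, edgeR called 3 lower and 0 higher in Il7r+ cells, where it called 0.57% of all genes lower and 0.756% higher. The 3 were Hspa1a (log2 fold change -0.34, SE 0.06, adjusted p = 0.000654), Hspa1b (-0.41, SE 0.10, adjusted p = 0.0213) and Hsp90aa1 (-0.28, SE 0.06, adjusted p = 0.0118). The median of the list was -0.03, beside 0.01 over all genes tested. These 3 genes also had negative log2 fold changes in DEP against PBS mice (-0.86, -0.49 and -0.87), where none was called.

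The genes named from the Il7r+ cells had DEP against PBS values of either sign, and 0 of the 15 were called, where 0% of all genes were called in all macrophages and 0.014% in Ccr2−-like cells, so this count is the background. In the Ccr2−-like cells, H2-M2 had a DEP against PBS log2 fold change of 0.93 (SE 0.21), Ecm1 of 0.61 (SE 0.18), Pxdc1 of 0.62 (SE 0.23) and Cd9 of 0.56 (SE 0.19). Crip1 had 0.16 (SE 0.16) and Apoe 0.06 (SE 0.15). Ccl8, lower in Il7r+ cells, had a positive value of 0.91 (SE 0.18, edgeR adjusted p = 0.112) in DEP mice, and Ccl7 one of -0.23 (SE 0.23).

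The genes whose level over the 10 macrophage clusters was most like that of Il7r were Dynll2, a dynein light chain gene (Pearson r of log2 CPM + 1 of 0.963), Gm19434 (0.944), the immune checkpoint receptor gene Lag3 (0.932), Rcn2 (0.928) and Adam19, a membrane protease gene (0.916), out of 6343 genes compared. The 10 points are cluster sums that share their libraries, and the lowest, cluster 9.3, has few UMIs. Lag3 stood at 88.8 CPM in cluster 1, 57.6 in cluster 4, 43.3 in cluster 5 and 11.2 in cluster 7. Gm19434 went from 40.8 CPM in cluster 1 to 1.53 in cluster 7.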

How the data were processed

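Single-cell RNA sequencing of 4 mice was analysed from a deposited table of UMI counts, whole numbers per gene and barcode, not normalized. Per the submitters' processing notes the authors used Cell Ranger (no version stated), STAR 2.6.1a and R 3.5.1 with the build mm10. Symbols came from GENCODE M21 for 28416 of 28692 genes. The member gene, the gene lists and the tests were chosen with earlier results of these data known. Kept barcodes had 1000 UMIs or more, reached 2.5 on the log10 scale in detected genes and had at most 7% mitochondrial UMIs. They were normalized with scran 1.30.0 and clustered by Ward's method. A cluster was named when at least 3 markers of a class reached 1.2 fold in at least 5% of its cells. Doublets were marked by scrublet (scanpy 1.11.5) and kept. UMIs were summed per mouse and tested by quasi-likelihood in edgeR 4.0.16 (R 4.3.3, TMM, Benjamini-Hochberg adjusted p of 0.05) for genes that passed 1 CPM in 2 or more sums and were seen in 5% of cells or more. Il7r+ and matched cells of a mouse come from the same animal, so the mouse was a block in that comparison. Thinned shares are the expected share of cells with a UMI when 1000 UMIs are drawn from each. Intervals are exact at 95%. Standard errors beside edgeR estimates were derived from the log2 fold change and its F statistic. For Il7r in all macrophages this gave 0.24, where DESeq2 gave 0.33. Limits beside a count of 0 use 3 counts. The fits were tested on counts simulated at an assumed spread. In all macrophages the DEP against PBS fit called 46.9% of the 2-fold and 91.9% of the 4-fold changes. The fit of Il7r+ against matched cells called 33.0% and 66.0% of these. A count of 0 calls in a list therefore does not show that its genes were unchanged. Named genes were Il7r, up to 8 genes per list, the 10 higher and 5 lower called genes with the smallest p that moved alike in 4 mice, and the 5 genes most like Il7r over clusters among genes over 20 CPM in a cluster. Other normalizations, DESeq2 1.42.0, limma voom 3.58.1, other filters and the omission of each mouse were tried.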

Additional observations from a re-analysis of the deposited data

How the results depend on the processing

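The Il7r log2 fold change between DEP and PBS mice stayed positive in the alternatives run for all macrophages (1.25 to 1.30, and 1.42 in cluster 1 alone) and Ccr2−-like cells (1.35 to 1.42) over other tools, filters and cell choices. It was 1.06 to 1.48 and 1.22 to 1.53 in these when a mouse was left out. These fits and the shares below reuse the mice whose values chose Il7r, so their direction is no support for the difference. In all macrophages Il7r was seen in 7.87% and 8.90% of the cells of DEP 11 and DEP 13. In PBS 2 and PBS 3 it was seen in 4.58% and 4.85%, below the 5% that the gene filter asks of all cells together. In Ccr2+-like cells the Il7r log2 fold change could be fitted only without the gene filter, at -0.070 (SE 0.77). The share of macrophages with Il7r differed by 3.16 to 4.19 percentage points without a mouse and by 0.882 after thinning to 1000 UMIs. T cell cluster cells exceeded macrophages by 12.8 to 24.6 points without a mouse and by 5.21 to 25.4 under the other settings, the lowest when cells with a CD3 UMI in any cluster stood in for the T cell cluster. Counts of called genes differed between settings. Without the gene filter they were 70 in all macrophages, 22 for the Ccr2+-like class and 65 for the Ccr2−-like class. With DESeq2 they were 4, 1 and 2, and for Il7r+ against matched cells 29. Under a stricter UMI minimum for cells they were 1 (Ccr2+-like) and 4 (Ccr2−-like), and in the latter 4 without doublets and 10 without cells with a CD3 UMI. Leaving out a mouse, which leaves 1 in a group and assumes that it varies like the other group, gave 3 to 50, 0 to 30 and 1 to 30 in the 3 strata. For Il7r+ against matched cells, where 3 complete pairs remain, it gave 50 to 83. In Ccr2+-like cells the count was 1 without DEP 13, 7 without PBS 2 and 30 without PBS 3. In Ccr2−-like cells it was 30 without DEP 11, 18 without DEP 13 and 2 without PBS 2. The Il7r+ comparison gave 702 calls against all other macrophages, 54 in cluster 1 alone and 2 without the replicate block, and Crip1 reversed to -0.055 in the first of these. The causes were not tested. No paired analysis was possible for DEP against PBS because the groups share no replicate number. Cluster 1 alone and the omission of clusters 9.2 and 9.3 (0 calls in all macrophages) were added after seeing the data. Depth limits the values of the Ccr2+-like, unnamed, plasma, T and B cell groups, which rest on 23, 15, 13, 10 and 0 Il7r UMIs.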

Other observations

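The 148 barcodes with at least 1000 UMIs that failed the other cell filters carried Il7r in 6 cases (4.05%), at 24.1 CPM (95% exact Poisson interval 8.85 to 52.5).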
